A study of Mus musculus with 8 samples.

Results

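The collagen genes of the mouse were described across 8 microarrays, 4 of brain tissue after stroke or sham surgery and 4 of CD4 T cells. Members were all genes whose current symbol is Col, a number, the letter a and a number, with the symbol taken from the RefSeq accession of the probe. This gave 44 genes of the 22911 genes with a named probe. They fall into 11 fibrillar genes, 6 genes of basement membrane collagen (Col4a1 to Col4a6) and 27 others. Each collagen gene encodes 1 alpha chain, and 3 chains wind into a triple helix. Fibrillar collagens are then trimmed outside the cell, assemble into fibrils and are crosslinked, whereas type IV collagen forms the sheet-like network of basement membranes. The healthy brain holds little fibrillar collagen outside its meninges and larger vessels, and the basement membranes of its vessels carry type IV collagen. After a stroke, fibroblasts and cells of the vessel wall are known sources of scar collagen.

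Tissue RNA came from slice 3 of the brain on the ischemic side, taken at day 14, in 4 groups of 1 array each. These were DEREG mice after stroke (DEREG ischemia), wild type mice after stroke (WT ischemia), DEREG mice after sham surgery (DEREG sham) and wild type mice after sham surgery (WT sham). DEREG mice carry a transgene for the diphtheria toxin receptor under control of Foxp3, the transcription factor of regulatory T cells (Treg), so that the toxin can deplete these cells. Whether toxin was given to DEREG or WT mice is not stated in the labels. T cell RNA came from CD4 T cells in 4 further groups of 1 array each, namely Treg and other CD4 T cells (nonTreg) of the WT ischemic brain at day 14 after stroke, and Treg and nonTreg of the spleen of untreated mice. How the Treg and nonTreg cells were separated, and how many animals each sample pools, is not given in the labels. Brain and spleen T cells therefore differ in tissue and in stroke at once.

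With 1 array per group, no difference has a replicate check and none was tested. Counts are of genes at least 2-fold apart, a difference of at least 1 on the log2 scale. A value is the signal of the gene's brightest probe, background-subtracted by the scanner software and scaled to the other arrays of its set, so that signals of 1 gene can be set side by side within the 4 tissue arrays or within the 4 T cell arrays but not between genes. Where the dimmer of 2 arrays was not well above background for a probe, the difference is a lower bound and is written "at least". Such a bound holds for the processing used here only, and other ways of processing gave smaller values for several genes. Between 69.0% and 72.2% of all genes were well above background on the tissue arrays, and 52.0% to 58.4% on the T cell arrays. The median SD between repeat spots of a probe was 0.039 to 0.042 on the log2 scale, a technical error only. The T cell label was checked with Cd3e, a chain of the T cell receptor complex, which had signals of 23517 in Treg and 27655 in nonTreg of the brain, and 30589 in Treg and 33684 in nonTreg of the spleen. Its co-receptor Cd4 had signals of 6175 in Treg and 9905 in nonTreg of the brain, and 4965 in Treg and 7349 in nonTreg of the spleen. Foxp3 had signals of 3843 in Treg and 726 in nonTreg of the brain, and 7782 in Treg and 12.2 in nonTreg of the spleen, and the last of these was not well above background. Both T cell genes were bright on all 4 arrays, and Foxp3 was brighter in Treg than in nonTreg in either organ. The nonTreg arrays were unlike in Foxp3, which was 5.29-fold higher in Treg in the brain and at least 630-fold in the spleen. Treg against nonTreg is therefore not the same contrast in both organs. In the slices, the synaptic gene Snap25 had signals of 4161 in DEREG ischemia, 7648 in WT ischemia, 26916 in DEREG sham and 27744 in WT sham. Gfap, the intermediate filament of reactive astrocytes, had signals of 15082 in DEREG ischemia, 9243 in WT ischemia, 855 in DEREG sham and 650.0 in WT sham.

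The promoters of 4 genes that the tissue results turn on are shown, as RefSeq gives them for the assembly GRCm38.p6, each from 250 bases before to 50 bases after the annotated start. In the windows of Col1a2 (chr6:4505368-4505667, plus strand) and Col3a1 (chr1:45311288-45311587, plus strand), capitals mark CCAAT and TATAAA on either strand.
Col1a2: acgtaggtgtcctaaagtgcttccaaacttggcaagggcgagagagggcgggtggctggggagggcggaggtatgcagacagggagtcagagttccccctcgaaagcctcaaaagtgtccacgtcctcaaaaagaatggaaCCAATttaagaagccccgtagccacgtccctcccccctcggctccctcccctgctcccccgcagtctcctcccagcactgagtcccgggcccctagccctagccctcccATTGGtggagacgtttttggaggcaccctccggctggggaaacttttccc
Col3a1: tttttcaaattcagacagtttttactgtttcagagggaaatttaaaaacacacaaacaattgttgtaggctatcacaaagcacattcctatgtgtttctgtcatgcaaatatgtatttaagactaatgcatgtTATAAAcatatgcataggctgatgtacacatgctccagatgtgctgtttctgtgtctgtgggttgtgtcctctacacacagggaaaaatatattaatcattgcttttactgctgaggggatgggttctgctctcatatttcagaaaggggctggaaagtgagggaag
Col1a2 has CCAAT with its first base 109 bases before the start and ATTGG, its reverse complement, from base 1 of the transcript. Col3a1 has TATAAA 117 bases before the start and no CCAAT in this window. In the windows of Col4a1 (chr8:11312777-11313076, minus strand) and Col4a2 (chr8:11312555-11312854, plus strand), capitals mark the stretch that both windows hold.
Col4a1: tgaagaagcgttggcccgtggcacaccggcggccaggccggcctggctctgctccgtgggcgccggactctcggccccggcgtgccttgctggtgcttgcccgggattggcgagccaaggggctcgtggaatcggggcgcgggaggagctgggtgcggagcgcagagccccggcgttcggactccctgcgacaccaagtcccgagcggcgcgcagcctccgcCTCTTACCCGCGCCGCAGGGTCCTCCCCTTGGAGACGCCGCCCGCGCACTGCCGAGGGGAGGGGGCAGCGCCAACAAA
Col4a2: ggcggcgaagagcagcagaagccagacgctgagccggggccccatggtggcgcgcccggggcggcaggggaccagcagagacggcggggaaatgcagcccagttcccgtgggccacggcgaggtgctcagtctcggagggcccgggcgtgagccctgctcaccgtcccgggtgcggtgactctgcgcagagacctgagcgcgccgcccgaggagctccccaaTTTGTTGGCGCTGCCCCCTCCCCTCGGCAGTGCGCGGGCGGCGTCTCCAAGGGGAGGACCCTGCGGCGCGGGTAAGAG
These genes encode the chains of the main type IV collagen and are read in opposite directions from starts 21 bases apart. The Col4a1 start is at base 11312826 and the Col4a2 start at base 11312805, so the annotated transcripts overlap at their starts. Their shared stretch is 78 bases long, and the capitals of one line are the reverse complement of the capitals of the other. It holds the 50 bases after the start of either gene, so most of it is transcribed sequence. Of the 44 genes, 35 are in the promoter table, with 38 windows. CCAAT on either strand was in 13 of these 38 windows (34.2%), against 37.4% of all 32851 promoter windows of that length. The GC box GGGCGG was in 23 of the 38 collagen windows (60.5%) and in 35.7% of all windows. TATAAA was in 5 collagen windows (13.2%) and in 13.6% of all windows.

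After stroke, most collagen genes had higher signals than after sham surgery, in both genotypes and in all 3 classes. In DEREG slices, 27 of the 41 collagen genes that could be compared were higher in ischemia than in sham by at least 2-fold and 4 were lower by as much, while 22.4% of all 17161 genes compared were that much higher and 22.1% that much lower. In WT slices, 27 collagen genes were higher and 4 lower of 40 compared, with 18.8% and 18.4% of all 16968 genes. The median difference of the collagen genes was 1.89 (log2) in DEREG and 1.92 in WT slices, and that of all genes -0.06 in DEREG and -0.14 in WT slices. The DEREG and WT comparisons share no array. At least 2-fold higher in both were 24 collagen genes, and at least 2-fold lower in both were 3 (Col6a4, Col19a1 and Col24a1). None of the 40 collagen genes compared in DEREG and in WT slices went opposite ways by 2-fold or more. Such opposite genes were rare in the whole set too, 7 of 16722, so their absence here is not particular to collagen genes. Of the same 16722 genes, 2971 rose and 2902 fell by that much in each genotype. Because these are bulk slices, more cells of a type and more RNA per cell cannot be told apart.

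A gene that passed the detection filter only through its ischemia array had to come out higher, so the members measured on both arrays are given apart. In DEREG slices, 36 of the 44 genes were well above background on both arrays, and 23 of these were higher by 2-fold or more and 4 lower in ischemia than in sham, with 20.1% and 22.3% of all 15468 genes measured on both. In WT slices, 34 were measured on both arrays, and 22 were higher and 4 lower, with 16.1% and 18.9% of all 15377 genes. A further 5 genes in DEREG (Col4a4, Col5a2, Col9a1, Col15a1 and Col17a1) and 6 in WT (Col4a4, Col5a2, Col8a2, Col10a1, Col14a1 and Col15a1) were well above background in ischemia and not in sham. Col4a3, Col6a6 and Col28a1 were not well above background on any tissue array, and Col17a1 was only so in DEREG ischemia.

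**Figure D1:**
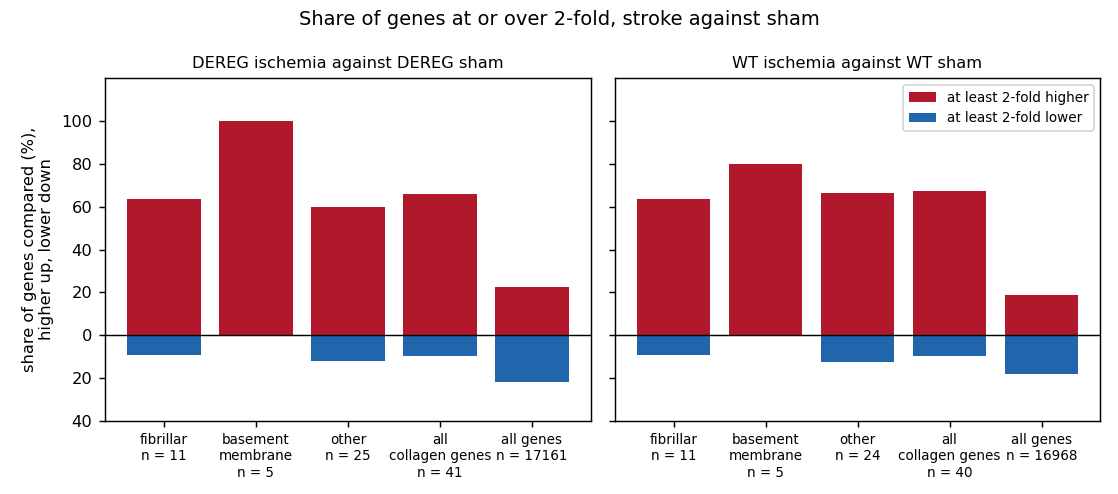
Bars give the share of genes higher (up) and lower (down) by at least 2-fold in ischemia than in sham, in percent of the genes compared, for the 3 collagen classes, all collagen genes and all genes, in DEREG (left) and WT slices (right). In both genotypes 27 collagen genes point up and 4 point down, and the bars up are taller than those of all genes (22.4% in DEREG and 18.8% in WT).

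Among the fibrillar genes, 7 of 11 were higher and 1 lower by 2-fold or more in ischemia than in sham in either genotype. The shares of all genes were 22.4% higher and 22.1% lower in DEREG, and 18.8% and 18.4% in WT slices. The median difference was 1.18 in DEREG and 1.23 in WT slices. Without Col5a2, which was well above background in ischemia only, it was 1.17 in DEREG and 1.12 in WT slices. The largest differences of all collagen genes were here. Col3a1, the single chain of type III collagen of vessel walls and young scars, had signals of 12419 in DEREG ischemia, 10465 in WT ischemia, 74.8 in DEREG sham and 57.6 in WT sham. That is 166-fold higher in DEREG and 182-fold higher in WT slices (log2 7.37 and 7.51). With normexp background correction of the median spot signal it was 6.61 in DEREG and 6.51 in WT slices. That correction made 29 of 31 collagen differences past 2-fold smaller in DEREG and 30 of 31 in WT slices, and moved 17 and 14 of them by over 1.5 times. The Col3a1 difference ranked 24 among the 15468 genes measured on both arrays in DEREG slices, and 12 among 15377 in WT slices. Both ischemia arrays were far above both sham arrays.

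Type I collagen, the main fibril former of scars, has chains from Col1a1 and Col1a2. Col1a1 had signals of 11469 in DEREG ischemia, 12622 in WT ischemia, 164 in DEREG sham and 155 in WT sham, a difference of 6.12 (log2) in DEREG and 6.35 in WT slices. Col1a2 had signals of 55592 in DEREG ischemia, 57553 in WT ischemia, 1362 in DEREG sham and 1206 in WT sham, a difference of 5.35 in DEREG and 5.58 in WT slices. Both chains were high in both ischemia slices and close between the genotypes. A second Col1a1 probe gave 6.19 in DEREG and 6.44 in WT slices.

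The type V genes, whose product starts and limits fibril growth, were also higher. Col5a1 had signals of 2165 in DEREG ischemia, 1719 in WT ischemia, 973 in DEREG sham and 732 in WT sham, a difference of 1.15 (log2) in DEREG and 1.23 in WT slices. Col5a2 had signals of 88.5 in DEREG ischemia, 79.4 in WT ischemia, 4.55 in DEREG sham and 5.10 in WT sham, and since neither sham array was well above background it was at least 3.08 higher in DEREG and at least 2.72 higher in WT slices. With other ways of processing, its difference went as low as 1.28 in DEREG and 1.05 in WT slices. Col5a3 had signals of 1168 in DEREG ischemia, 718 in WT ischemia, 163 in DEREG sham and 122 in WT sham, a difference of 2.84 in DEREG and 2.56 in WT slices. All 3 type V genes were thus brighter on both ischemia arrays than on either sham array. The genes best known from cartilage lay near or under the threshold. Col2a1, the chain of cartilage type II collagen, had signals of 112 in DEREG ischemia, 88.4 in WT ischemia, 58.8 in DEREG sham and 43.9 in WT sham, and its difference was 0.93 in DEREG and 1.01 in WT slices. Col27a1, a minor fibrillar chain of cartilage, had signals of 147 in DEREG ischemia, 108 in WT ischemia, 64.7 in DEREG sham and 57.9 in WT sham, with differences of 1.18 in DEREG and 0.91 in WT slices. Each of these 2 genes was just over 2-fold in one genotype and just under it in the other. Col11a1 and Col11a2, chains of type XI collagen, differed by -0.16 and -0.09 in DEREG and by 0.24 and -0.18 in WT slices. Their sign in DEREG depends on the probe. A second Col11a1 probe gave 0.46 in DEREG and 0.69 in WT slices, and a second Col11a2 probe 0.66 in DEREG slices. Col24a1, a fibrillar chain found in developing bone, went the other way, with signals of 40.6 in DEREG ischemia, 46.9 in WT ischemia, 129 in DEREG sham and 142 in WT sham. Both ischemia arrays were below both sham arrays, by -1.66 in DEREG and -1.59 in WT. The other Col24a1 probe was not well above background on any tissue array.

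**Figure D2:**
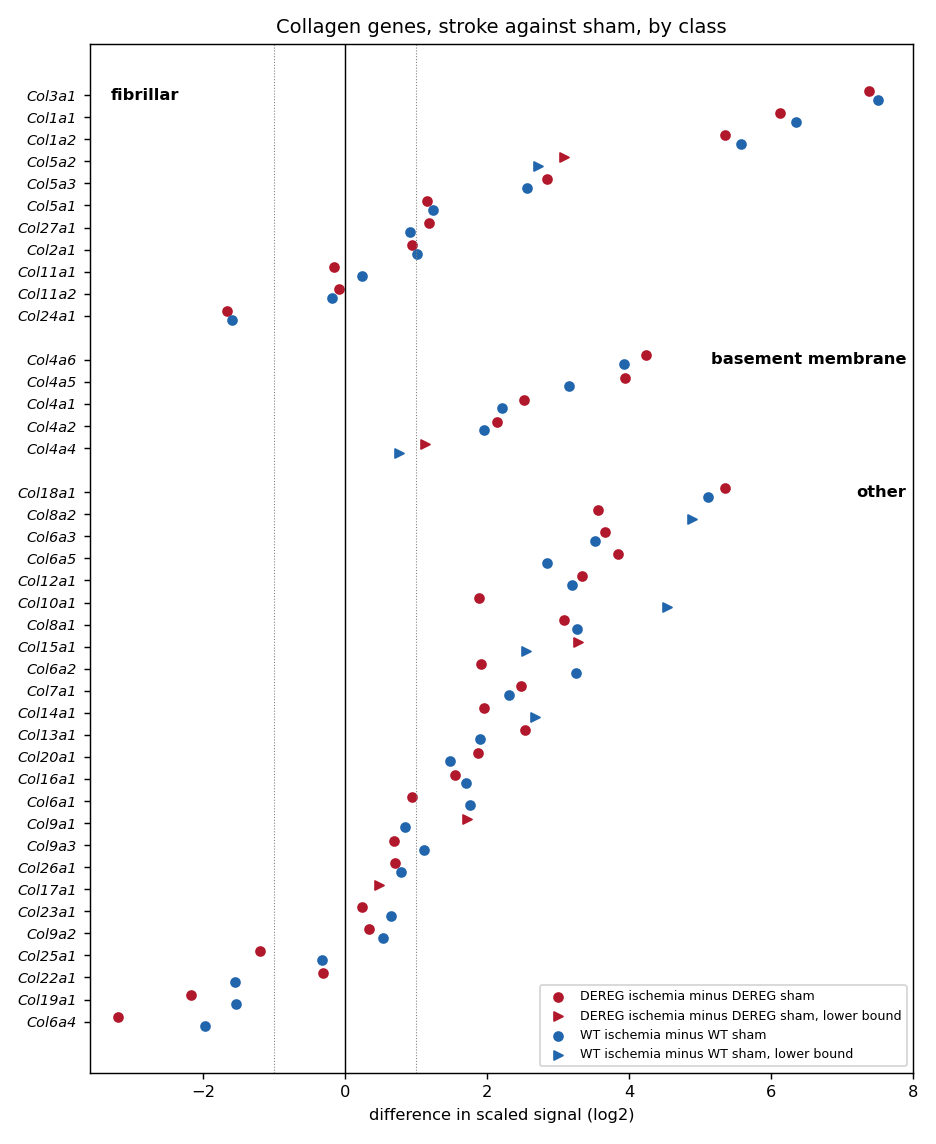
Each row is 1 collagen gene, and the horizontal axis gives the log2 difference in scaled signal between ischemia and sham, in DEREG (red) and WT slices (blue), grouped by class; triangles are lower bounds and dotted lines mark 2-fold. Col3a1, Col1a1, Col1a2 and Col18a1 lie farthest to the right in both genotypes, and Col6a4, Col19a1 and Col24a1 lie left of the 2-fold line in both.

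Basement membrane collagen was higher in ischemia throughout the measured genes. Of the 5 Col4 genes compared, 5 in DEREG and 4 in WT slices were at least 2-fold higher, with median differences of 2.52 and 2.21. The shares of all genes that much higher were 22.4% in DEREG and 18.8% in WT slices. The DEREG count includes Col4a4, which passed the filter through its ischemia array alone. Without Col4a4 the median differences were 3.23 in DEREG and 2.68 in WT slices. Col4a1 and Col4a2, whose windows printed above overlap and which make the type IV collagen found in nearly all basement membranes, moved by similar amounts. Col4a1 had signals of 4308 in DEREG ischemia, 3148 in WT ischemia, 751 in DEREG sham and 679.8 in WT sham, a difference of 2.52 (log2) in DEREG and 2.21 in WT slices. Col4a2 had signals of 3759.6 in DEREG ischemia, 2848 in WT ischemia, 854 in DEREG sham and 738 in WT sham, a difference of 2.14 in DEREG and 1.95 in WT slices. The next pair, Col4a5 and Col4a6, encodes chains of more restricted basement membranes such as those around smooth muscle, and the genes are likewise neighbours. Col4a5 had signals of 717 in DEREG ischemia, 467 in WT ischemia, 46.8 in DEREG sham and 52.4 in WT sham, a difference of 3.94 in DEREG and 3.16 in WT slices. Col4a6 had signals of 1096 in DEREG ischemia, 718 in WT ischemia, 58.3 in DEREG sham and 47.0 in WT sham, a difference of 4.23 in DEREG and 3.93 in WT slices. The difference was larger for Col4a5 and Col4a6 than for Col4a1 and Col4a2 in both genotypes. Col4a4, a chain of the filtering membrane of the kidney, was dim, with signals of 22.8 in DEREG ischemia, 20.4 in WT ischemia, 3.46 in DEREG sham and 2.98 in WT sham. It was well above background in ischemia only, at least 1.12 higher in DEREG and at least 0.76 in WT slices. Its neighbour Col4a3 was not well above background on any array.

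The other collagens behaved unevenly. Of those compared, 15 of 25 in DEREG and 16 of 24 in WT slices were at least 2-fold higher in ischemia than in sham. In either genotype 3 were lower by as much. Among all genes, 22.4% were that much higher and 22.1% lower in DEREG, and 18.8% and 18.4% in WT slices. The median differences of these collagens were 1.87 in DEREG and 1.82 in WT slices. Well above background in ischemia only were 3 of them in DEREG and 4 in WT slices. Those measured on both arrays had medians of 1.88 and 1.59. The multiplexins, which sit at the outer face of vascular and epithelial basement membranes, were higher. Col18a1, whose end fragment endostatin restrains vessel growth, had signals of 12946 in DEREG ischemia, 8934 in WT ischemia, 319 in DEREG sham and 258 in WT sham. That is 40.6-fold higher in DEREG and 34.6-fold higher in WT slices. Col15a1 had signals of 102 in DEREG ischemia, 70.1 in WT ischemia, 2.96 in DEREG sham and 4.52 in WT sham, at least 3.27 higher (log2) in DEREG and at least 2.54 in WT slices, because neither sham array was well above background. With other ways of processing, its difference went as low as 1.24 in DEREG and 0.26 in WT slices. Col7a1, the chain of the anchoring fibrils of skin, had signals of 5005 in DEREG ischemia, 3623 in WT ischemia, 899 in DEREG sham and 729 in WT sham, a difference of 2.48 in DEREG and 2.31 in WT slices. For all 3 genes the DEREG ischemia array was the brightest of the 4.

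Type VI collagen forms beaded microfilaments around cells, with Col6a1, Col6a2 and Col6a3 as the classical chains. Col6a1 had signals of 8510.2 in DEREG ischemia, 11956 in WT ischemia, 4421 in DEREG sham and 3547 in WT sham, a difference of 0.94 (log2) in DEREG and 1.75 in WT slices. Col6a2, its neighbour in the genome, had signals of 811 in DEREG ischemia, 1556 in WT ischemia, 214 in DEREG sham and 164 in WT sham, a difference of 1.92 in DEREG and 3.24 in WT slices. Both were brightest in WT ischemia. Col6a3 had signals of 710.3 in DEREG ischemia, 617 in WT ischemia, 56.3 in DEREG sham and 53.7 in WT sham, with differences of 3.66 in DEREG and 3.52 in WT slices; a second Col6a3 probe gave 1.71 in DEREG slices. The chains that can take the place of the Col6a3 product lie next to each other in the genome and went opposite ways. Col6a5 had signals of 211 in DEREG ischemia, 179 in WT ischemia, 14.7 in DEREG sham and 24.9 in WT sham, a difference of 3.84 in DEREG and 2.85 in WT slices. Col6a4 had signals of 48.0 in DEREG ischemia, 140.4 in WT ischemia, 441 in DEREG sham and 551 in WT sham, a difference of -3.20 in DEREG and -1.97 in WT slices. Its difference was the lowest of all collagen genes in both genotypes, and its other probe was not well above background on any tissue array. The third chain of this cluster, Col6a6, was not well above background.

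The short-chain collagens, which form hexagonal networks, were all higher in ischemia. Col8a1, a chain of the cornea and of injured vessel walls, had signals of 4494 in DEREG ischemia, 4228 in WT ischemia, 533 in DEREG sham and 439 in WT sham, a difference of 3.08 (log2) in DEREG and 3.27 in WT slices. Col8a2 had signals of 229.6 in DEREG ischemia, 356 in WT ischemia, 19.4 in DEREG sham and 7.28 in WT sham, a difference of 3.56 in DEREG slices and of at least 4.89 in WT slices, where the sham array was not well above background. Col10a1, the collagen of hypertrophic cartilage, had signals of 58.0 in DEREG ischemia, 278 in WT ischemia, 15.7 in DEREG sham and 10.9 in WT sham, a difference of 1.89 in DEREG slices and of at least 4.53 in WT slices. Col8a2 and Col10a1 were brightest in WT ischemia, whereas Col8a1 was about equal on both ischemia arrays.

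**Figure D3:**
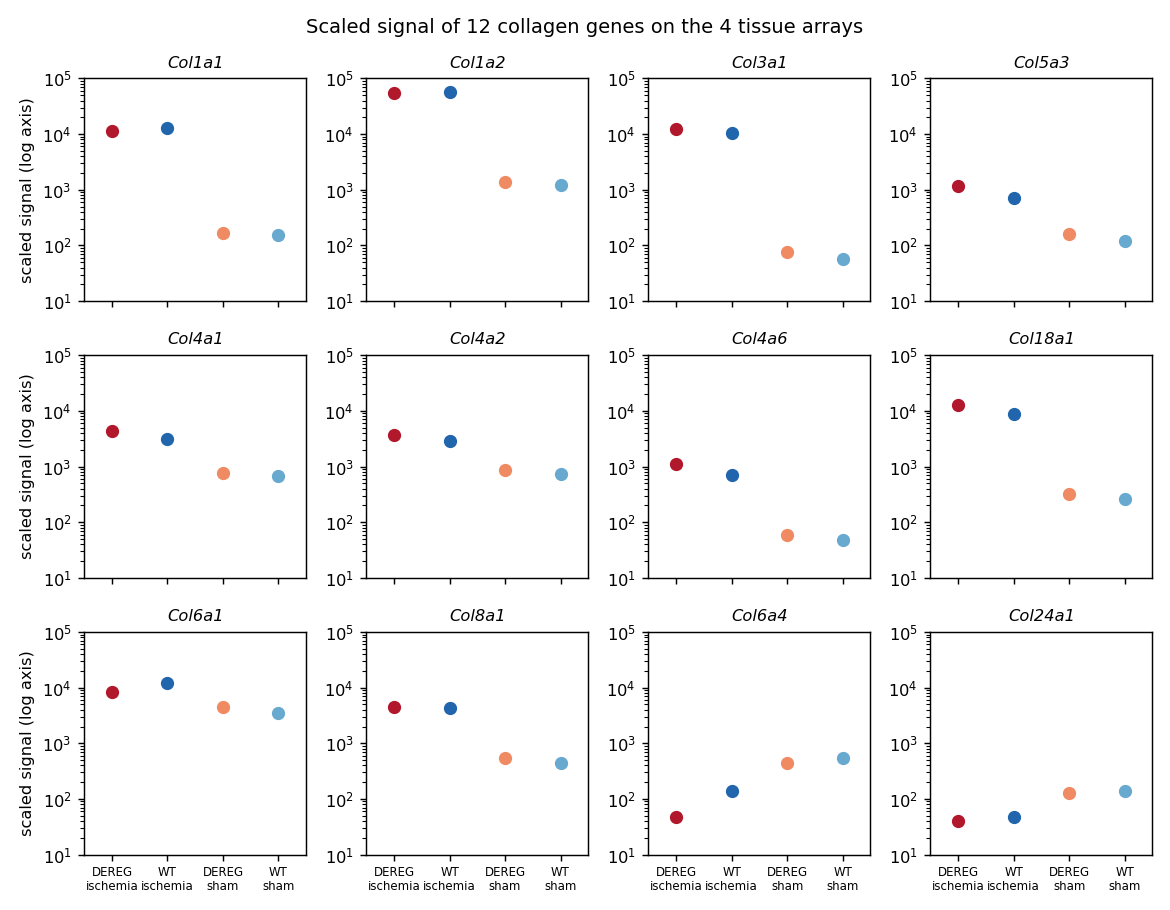
Each panel gives the scaled signal of 1 collagen gene (log axis) on the 4 tissue arrays, 1 point per array, in the order DEREG ischemia, WT ischemia, DEREG sham and WT sham. For 10 of the 12 genes both ischemia arrays lie above both sham arrays, and for Col6a4 and Col24a1 they lie below.

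FACIT collagens coat the surface of fibrils and link them to their surroundings. Col12a1, which coats type I fibrils, had signals of 239 in DEREG ischemia, 197 in WT ischemia, 23.7 in DEREG sham and 21.6 in WT sham, a difference of 3.33 (log2) in DEREG and 3.19 in WT slices. Col14a1, its close relative, had signals of 45.2 in DEREG ischemia, 76.8 in WT ischemia, 11.7 in DEREG sham and 8.61 in WT sham, a difference of 1.95 in DEREG and of at least 2.67 in WT slices. Col16a1 had signals of 7766 in DEREG ischemia, 6764 in WT ischemia, 2665 in DEREG sham and 2074 in WT sham, with differences of 1.54 in DEREG and 1.71 in WT slices. These fibril-coating chains were higher on both ischemia arrays. So was Col20a1, a relative of Col14a1, with signals of 392 in DEREG ischemia, 288 in WT ischemia, 107.3 in DEREG sham and 103 in WT sham and differences of 1.87 in DEREG and 1.48 in WT slices. The type IX chains, partners of cartilage type II collagen, differed less. Col9a1 had signals of 34.6 in DEREG ischemia, 33.2 in WT ischemia, 9.10 in DEREG sham and 18.6 in WT sham, at least 1.72 higher in DEREG slices, where the sham array was not well above background, and 0.84 higher in WT slices. Col9a3 had signals of 271 in DEREG ischemia, 348 in WT ischemia, 169 in DEREG sham and 162 in WT sham, with differences of 0.69 in DEREG and 1.11 in WT slices. Col9a2 differed by 0.34 in DEREG and 0.54 in WT slices.

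The remaining FACIT genes were lower in ischemia in at least one genotype. Col19a1, which certain interneurons make at their synapses, had signals of 61.2 in DEREG ischemia, 102 in WT ischemia, 276 in DEREG sham and 296 in WT sham. Its difference was -2.17 (log2) in DEREG and -1.54 in WT slices, and its other probe was well above background on both sham arrays and on neither ischemia array. Col22a1, a chain of tissue junctions such as that between muscle and tendon, had signals of 367 in DEREG ischemia, 173 in WT ischemia, 457 in DEREG sham and 508 in WT sham, a difference of -0.32 in DEREG and -1.56 in WT slices. By this probe the WT ischemia array was thus the one that stood low for Col22a1. The other Col22a1 probe was well above background in DEREG ischemia and on neither sham array. With other ways of processing, the DEREG difference of Col22a1 lay between -0.37 and 0.46, so its sign is not settled. Of the transmembrane collagens, Col13a1, a chain of cell adhesion sites and the neuromuscular junction, had signals of 271 in DEREG ischemia, 201 in WT ischemia, 46.6 in DEREG sham and 54.2 in WT sham, with differences of 2.54 in DEREG and 1.89 in WT slices. Col25a1, a neuronal membrane collagen whose cleaved part is found in amyloid plaques, had signals of 155 in DEREG ischemia, 245 in WT ischemia, 356 in DEREG sham and 308 in WT sham, with differences of -1.20 in DEREG and -0.33 in WT slices. Col13a1 was therefore high and Col25a1 low in DEREG ischemia. By the probe used, Col23a1 stayed under 2-fold in both genotypes (0.24 in DEREG and 0.64 in WT slices). Its other probes gave 0.85 and 0.57 in DEREG slices, and the one measured on both WT arrays gave 1.02. Col17a1, the collagen of hemidesmosomes, was dim, at least 0.48 higher in DEREG slices and not compared in WT slices. Col26a1, which belongs to no large subgroup, differed by 0.70 in DEREG and 0.79 in WT slices.

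Genes of the other steps of collagen making and binding were also mostly higher in ischemia. Among all genes, 22.4% were at least 2-fold higher and 22.1% lower in DEREG slices, and 18.8% and 18.4% in WT slices, and the counts of these lists stand beside those shares. Of the lysine- and proline-modifying enzymes and their partners, 9 of 15 in DEREG and 10 of 15 in WT slices were at least 2-fold higher and 2 lower. Plod1, a lysyl hydroxylase, differed by 3.29 (log2) in DEREG and 2.77 in WT slices, and Crtap, a part of the prolyl 3-hydroxylation complex, by 3.14 and 2.91. P3h1, the enzyme of the same complex, was lower by -2.90 in DEREG and -1.96 in WT slices. Of the folding and secretion genes, 4 of 6 in DEREG and 3 of 6 in WT slices were higher and 1 lower, with Serpinh1, the collagen chaperone, at 3.73 and 3.09. Of the procollagen-trimming genes, 4 of 7 were higher and 1 lower in either genotype. Adamts2, the protease that removes the amino-terminal end of type I procollagen, differed by 3.41 in DEREG and 4.40 in WT slices, and Adamts3, its relative, by -2.20 and -1.89. The 4 crosslinking genes that could be compared were all past 2-fold, higher in ischemia, in both genotypes. Loxl2, a lysyl oxidase active on type IV collagen, differed by 6.30 in DEREG and 5.67 in WT slices, and Lox, its relative, by at least 5.22 in DEREG and at least 4.22 in WT slices, since neither sham array was well above background.

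Proteins that bind collagen showed the same direction. Of the fibril partners, 7 of 8 in DEREG and 8 of 8 in WT slices were at least 2-fold higher, among them the fibril-spacing proteoglycans Lum (6.15 in DEREG and 5.82 in WT, log2) and Dcn (5.31 and 4.59). Of the basement membrane partners, 10 of 12 were higher and 1 lower in either genotype. The linker protein Nid1 differed by 4.14 in DEREG and 3.68 in WT slices, and the proteoglycan Hspg2 by 3.46 and 3.14. Pxdn, the enzyme that forms the sulfilimine bonds of type IV collagen, differed by -1.30 in DEREG and -1.20 in WT slices. Of the collagen receptors, 6 of 9 in DEREG and 6 of 8 in WT slices were higher and none was lower. They included Lair1, an inhibitory receptor of leukocytes (3.98 in DEREG and 3.59 in WT), and Mrc2, an uptake receptor for collagen fragments (3.03 and 3.74).

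Markers of several cell types moved with the collagen genes between ischemia and sham. The summed signal of 10 fibroblast markers was 83535 in DEREG ischemia, 52382 in WT ischemia, 5107 in DEREG sham and 4295 in WT sham. That of 10 microglia and macrophage markers was 390023 in DEREG ischemia, 318771 in WT ischemia, 25625 in DEREG sham and 28324 in WT sham. That of 8 neuron markers was 20483 in DEREG ischemia, 45331 in WT ischemia, 156901 in DEREG sham and 168254 in WT sham. The sums of fibroblast and macrophage markers were thus higher, and that of neuron markers lower, on the ischemia arrays. A sum is weighted to its brightest probes. As medians, fibroblast markers differed by 2.45 (log2) in DEREG and 3.02 in WT slices, macrophage markers by 4.12 and 3.52 and neuron markers by -3.13 and -1.91. Astrocyte markers had medians of 0.84 and 0.72, though their summed signal was lower on both ischemia arrays than on either sham array. Pericyte and smooth muscle markers had a median difference of 1.20 (log2) in DEREG and 0.93 in WT slices, and endothelial markers 0.79 and 0.54. All fibroblast, endothelial, pericyte and macrophage markers other than the fibroblast gene Dpt were well above background on all 4 arrays. The part of these cell types in the collagen differences was not tested.

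Between the genotypes after stroke, the counts of collagen genes 2-fold apart were near the shares of all genes. Comparing DEREG with WT ischemia, 1 collagen gene was at least 2-fold higher and 2 were at least 2-fold lower of 41 compared, with 2.36% of all 16857 genes higher and 5.37% lower. The 11 fibrillar genes lay between -0.55 (log2, Col11a1) and 0.70 (Col5a3), with a median of 0.16. Col1a1 differed by -0.14, Col1a2 by -0.05 and Col3a1 by 0.25. All 5 basement membrane genes compared were above 0, from 0.16 (Col4a4) to 0.62 (Col4a5), and none reached 2-fold. The median of all genes was 0.08. Col18a1 and Col15a1 differed by 0.54 and 0.53.

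The 3 genes past 2-fold were Col22a1, Col6a4 and Col10a1. Col22a1 was 2.12-fold higher in DEREG than in WT ischemia, with signals of 367 and 173. Its other probe was well above background in DEREG ischemia and not in WT ischemia, nor on either sham array, where the probe used was brightest. Col6a4 was 2.92-fold lower, with 48.0 in DEREG and 140.4 in WT ischemia. Col10a1 was 4.78-fold lower, with 58.0 in DEREG and 278 in WT ischemia. Col6a2 was just under the threshold at -0.94 (log2), and Col14a1, Col19a1, Col25a1 and Col8a2 lay between -0.77 and -0.63. With normexp background correction of the median spot signal, 1 collagen gene remained past 2-fold, Col10a1 at -1.44, and with the median over a gene's probes Col6a4 was at -0.81. Between the sham slices none of 36 collagen genes compared was 2-fold apart between DEREG and WT, with 0.590% of all 16273 genes higher and 0.449% lower. The collagen median there was 0.17, and that of all genes -0.01.

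**Figure D4:**
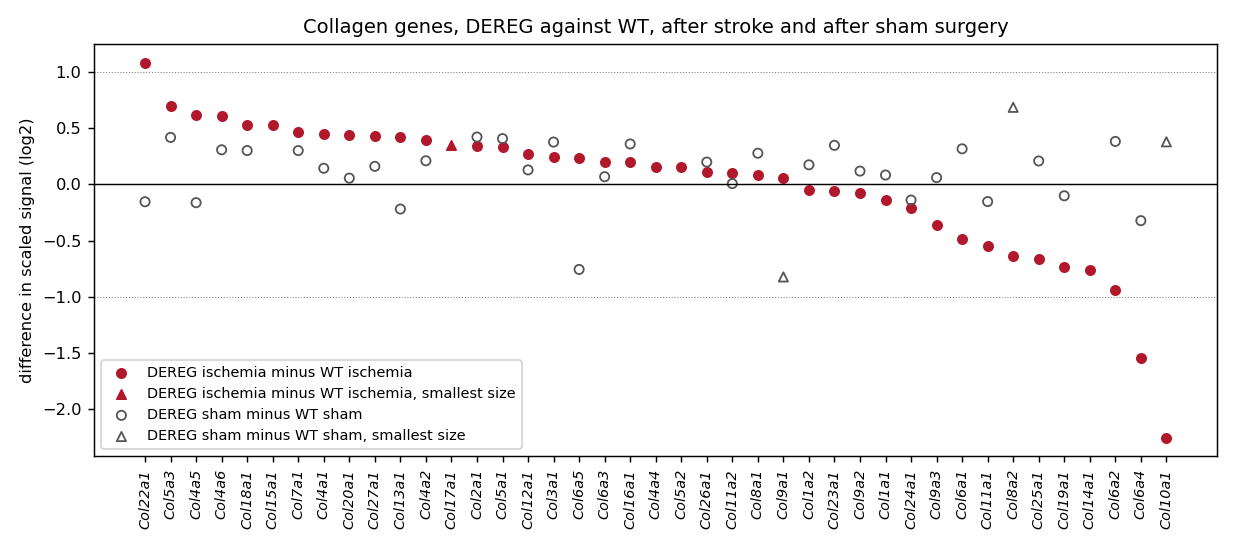
For each collagen gene compared between the ischemia slices, filled points give the log2 difference DEREG ischemia minus WT ischemia and open points DEREG sham minus WT sham. Triangles are lower bounds on the size of a difference, for the processing used, where one array was not well above background. Dotted lines mark 2-fold. After stroke Col22a1 lies above the upper line and Col6a4 and Col10a1 below the lower one, and after sham surgery no gene crosses either line.

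The 2 ischemia slices also differed in the markers they held. Of 7 choroid plexus markers, 6 were at least 2-fold lower and 1 higher in DEREG than in WT ischemia, and their summed signal was 1443 in DEREG ischemia, 29966 in WT ischemia, 953 in DEREG sham and 494 in WT sham. Ttr, the most abundant secreted protein of the choroid plexus, had signals of 499.6 in DEREG ischemia, 26697 in WT ischemia, 345 in DEREG sham and 93.8 in WT sham. The WT ischemia array stood apart from the other 3 for this gene. Of 8 neuron markers, 4 were at least 2-fold lower in DEREG than in WT ischemia (median -1.08), and of 7 T cell markers, 6 were at least 2-fold higher (median 1.80). The fibroblast markers had a median difference of 0.35, the pericyte markers 0.32 and the endothelial markers 0.26, with none past 2-fold. Foxp3 was not well above background on any tissue array. Whether these makeups have a part in the differences of Col6a2, Col6a4, Col8a2, Col10a1 or Col22a1 was not tested. Their part in the stroke comparisons of either genotype was not tested either.

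In the T cell RNA, collagen genes were dim. Of the 44 genes, 14 were well above background in Treg and 14 in nonTreg of the brain, and 7 in Treg and 4 in nonTreg of the spleen. Only 3 (Col7a1, Col20a1 and Col23a1) were so on all 4 arrays, and 27 were so on none. The lowest signal well above background was 8.47 to 12.4, and no collagen gene passed 221. T cells are not known as collagen makers.

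Comparing brain with spleen Treg, 7 collagen genes were at least 2-fold higher and 5 lower of 15 compared, with 17.2% of all 13779 genes higher and 11.7% lower. Comparing brain with spleen nonTreg, 7 were higher and 3 lower of 14 compared, with 17.8% and 12.1% of all 13404 genes. Higher in the brain in both cell groups were Col1a2, Col4a1, Col4a2, Col6a1, Col8a1 and Col18a1. All of these were bounds except Col1a2 in Treg, since the spleen arrays were not well above background. Of the genes above background on both arrays, 1 was higher and 4 were lower of 5 in brain Treg (12.2% and 11.6% of all 11873 genes), and none was higher and 2 were lower of 3 in brain nonTreg (12.6% and 11.6% of all 11502 genes). With normexp correction of the median spot signal, 1 gene was higher and 2 were lower in brain Treg, and 2 were higher and none lower in brain nonTreg.

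Col18a1 stood out most, with signals of 221 in Treg and 120.1 in nonTreg of the brain, and 2.26 in Treg and 2.79 in nonTreg of the spleen. It was at least 4.49 higher (log2) in brain than in spleen Treg and at least 3.28 in brain than in spleen nonTreg. With other ways of processing, these differences of Col18a1 went as low as 1.93 in Treg and 1.20 in nonTreg. The type I and type III genes were dimmer. Col1a2 had signals of 84.1 in Treg and 133 in nonTreg of the brain, and 15.2 in Treg and 3.18 in nonTreg of the spleen, a difference of 2.47 in Treg and of at least 3.42 in nonTreg. Col1a1 had signals of 18.0 in Treg and 12.5 in nonTreg of the brain, and 4.03 in Treg and 3.16 in nonTreg of the spleen, and was at least 0.87 higher in brain than in spleen Treg. Col3a1 had signals of 13.2 in Treg and 19.0 in nonTreg of the brain, and 3.86 in Treg and 2.50 in nonTreg of the spleen, and was at least 0.42 higher in Treg and at least 0.62 in nonTreg of the brain. For all 3 genes both brain arrays were above both spleen arrays.

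Col4a1 had signals of 31.7 in Treg and 45.4 in nonTreg of the brain, and 2.15 in Treg and 2.69 in nonTreg of the spleen, at least 1.69 higher (log2) in brain than in spleen Treg and at least 1.88 in nonTreg. Col4a2 had signals of 31.9 in Treg and 34.7 in nonTreg of the brain, and 1.99 in Treg and 2.47 in nonTreg of the spleen, at least 1.70 higher in Treg and at least 1.49 in nonTreg. Both genes of the basement membrane pair were not well above background in the spleen, and Col4a1 was brighter in brain nonTreg than in brain Treg. Col8a1 had signals of 76.1 in Treg and 88.5 in nonTreg of the brain, and 4.86 in Treg and 3.15 in nonTreg of the spleen, at least 2.95 higher in brain Treg and at least 2.84 in brain nonTreg. With other ways of processing, the Treg differences went as low as 0.80 for Col8a1, 0.26 for Col4a1 and 0.24 for Col4a2. In nonTreg they went as low as 0.80 for Col8a1, 0.39 for Col4a1 and 0.29 for Col4a2. Col6a1 had signals of 21.8 in Treg and 51.0 in nonTreg of the brain, and 1.98 in Treg and 2.46 in nonTreg of the spleen, at least 1.15 higher in brain Treg and at least 2.05 in brain nonTreg. Col27a1 had signals of 22.9 in Treg and 4.42 in nonTreg of the brain, and 3.23 in Treg and 2.43 in nonTreg of the spleen and was well above background in brain Treg alone, at least 1.22 higher than in spleen Treg. Col15a1 was not well above background on any T cell array, with signals of 5.75 in Treg and 2.07 in nonTreg of the brain, and 2.84 in Treg and 2.74 in nonTreg of the spleen.

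**Figure D5:**
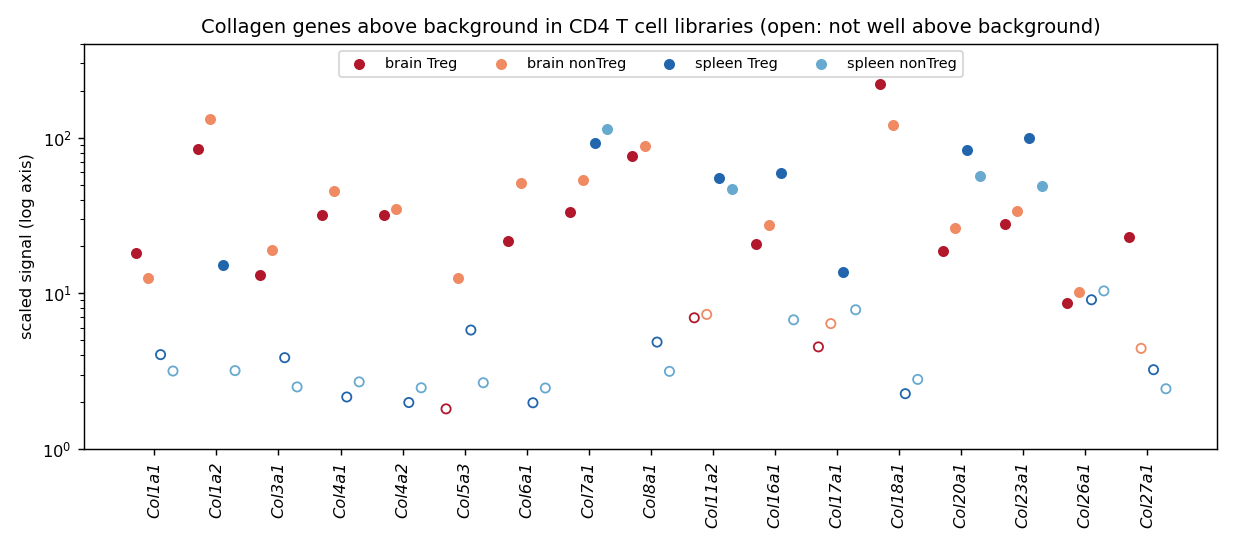
Scaled signal (log axis) of the 17 collagen genes well above background on at least 1 T cell array, with 1 point each for brain Treg, brain nonTreg, spleen Treg and spleen nonTreg; open points were not well above background. Col1a2, Col4a1, Col4a2, Col8a1 and Col18a1 are higher on both brain arrays, and Col7a1, Col11a2, Col20a1 and Col23a1 on both spleen arrays.

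Another set of genes was lower in the brain. Col11a2 had signals of 6.96 in Treg and 7.31 in nonTreg of the brain, and 55.3 in Treg and 46.5 in nonTreg of the spleen, with a difference of -2.71 (log2) or beyond between brain and spleen Treg and of -2.35 or beyond in nonTreg. Col20a1 had signals of 18.7 in Treg and 26.3 in nonTreg of the brain, and 83.2 in Treg and 56.4 in nonTreg of the spleen, a difference of -2.15 in Treg and -1.10 in nonTreg. Col7a1 had signals of 33.2 in Treg and 53.4 in nonTreg of the brain, and 92.0 in Treg and 114 in nonTreg of the spleen, a difference of -1.47 in Treg and -1.09 in nonTreg. Both spleen arrays were above both brain arrays for these 3 genes. Col23a1 had signals of 28.0 in Treg and 33.8 in nonTreg of the brain, and 100.2 in Treg and 49.1 in nonTreg of the spleen, a difference of -1.84 in Treg and -0.54 in nonTreg. Col16a1 had signals of 20.7 in Treg and 27.5 in nonTreg of the brain, and 59.2 in Treg and 6.75 in nonTreg of the spleen. That is a difference of -1.52 in Treg and of at least 1.15 in nonTreg, so that spleen Treg stood high and spleen nonTreg low. Its other probe was not well above background on any T cell array, and the other Col23a1 probes were so in spleen Treg at most. Col17a1 was well above background in spleen Treg alone, Col5a3 in brain nonTreg alone, and Col26a1 on both brain arrays.

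Between Treg and nonTreg, only 15 collagen genes could be compared in the brain and 7 in the spleen, so the counts are small. Comparing brain Treg with brain nonTreg, 1 was at least 2-fold higher and 1 lower of 15 compared, with 4.63% of all 13756 genes higher and 2.86% lower. The higher one was Col27a1, by at least 1.33 (log2), and the lower one Col6a1, by -1.22. Col18a1 differed by 0.88, Col1a2 by -0.66, Col4a1 by -0.52 and Col8a1 by -0.22. Comparing spleen Treg with spleen nonTreg, 2 collagen genes were higher and none lower of 7 compared, with 5.38% and 3.24% of all 12546 genes. These were Col16a1, by at least 2.26, and Col23a1, by 1.03. With normexp correction of the median spot signal, none was 2-fold apart in either organ. Col23a1 lay between 0.97 and 0.99 under 3 other scalings and with the deposited series table, and Col16a1 at 0.98 with the median over its probes.

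Markers of other cell types were present in the brain T cell RNA. Of 10 endothelial markers, 10 were well above background on both brain arrays and 3 on each spleen array, with summed signals of 32714 in Treg and 57204 in nonTreg of the brain, and 16563 in Treg and 21705 in nonTreg of the spleen. Most of each sum was Ly6c1, which T cells also express, and the other 9 markers summed to 2366 in Treg and 3647 in nonTreg of the brain, and 178 in Treg and 213 in nonTreg of the spleen. Cldn5, a tight junction gene of brain endothelium, had signals of 941 in Treg and 1562 in nonTreg of the brain, and 2.02 in Treg and 2.53 in nonTreg of the spleen. Of 10 microglia and macrophage markers, 10 were at least 2-fold higher in the brain in either cell group. Of all genes, 17.2% were that much higher in brain Treg and 17.8% in brain nonTreg. Only 3 of the markers were measured on both arrays in either cell group, and all 3 were higher. The rest passed the filter through the brain array alone. Their summed signals over all 10 were 36234 in Treg and 14716 in nonTreg of the brain, and 322 in Treg and 360.1 in nonTreg of the spleen. Endothelial markers were therefore highest in brain nonTreg and macrophage markers in brain Treg. Of 10 pericyte and smooth muscle markers, 8 were well above background in brain Treg, 9 in brain nonTreg and 3 on each spleen array. Of 10 fibroblast markers, 5 were so in Treg and 4 in nonTreg of the brain, and 2 in Treg and 1 in nonTreg of the spleen. Lum, Pdgfra, Aldh1a2, Dpt and Fmod were not well above background on any T cell array. Dcn had signals of 63.5 in Treg and 55.8 in nonTreg of the brain, and 4.22 in Treg and 3.57 in nonTreg of the spleen. Slc6a13, a transporter of meningeal fibroblasts, had signals of 100.4 in Treg and 54.5 in nonTreg of the brain, and 17.1 in Treg and 18.2 in nonTreg of the spleen. Ogn, a small proteoglycan, had signals of 14.0 in Treg and 29.7 in nonTreg of the brain, and 2.23 in Treg and 2.68 in nonTreg of the spleen. All 3 of these fibroblast markers were thus higher on both brain arrays than on either spleen array. Sparc, a collagen-binding protein of macrophages and vessel cells, had signals of 13176 in Treg and 6047 in nonTreg of the brain, and 2.22 in Treg and 4.63 in nonTreg of the spleen. The part of these cells in the collagen signals of brain T cell RNA was not tested.

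Of the other genes of collagen making, fewer could be compared here than in tissue, and their counts stand beside shares of all genes of 17.2% higher and 11.7% lower in brain than in spleen Treg and 17.8% and 12.1% in nonTreg. Of the folding and secretion genes, 4 of 6 were at least 2-fold higher and none lower, in Treg and in nonTreg alike. Of the 3 measured on both arrays, 1 was higher in Treg and 2 in nonTreg, and the others that were higher passed the filter through the brain array alone. Sec24d, a coat protein of the vesicles that carry procollagen, differed by 1.78 (log2) in Treg and 2.21 in nonTreg, and Serpinh1 by at least 1.40 in Treg and at least 2.01 in nonTreg. Of the modifying enzymes, 3 of 12 were higher and none lower in Treg, and 2 were higher and 1 lower of 12 in nonTreg. The nonTreg count is near the shares of all genes. Of those measured on both arrays, 1 of 8 was higher in Treg, and 1 of 9 was higher and 1 lower in nonTreg. P4hb, a subunit of prolyl 4-hydroxylase that also serves other proteins, differed by 1.25 in Treg and 1.82 in nonTreg. Loxl2 was the only crosslinking gene compared, at 0.03 in Treg and -0.24 in nonTreg. Of the collagen receptors, 2 of 7 were higher and 2 lower in Treg, and 3 of 6 were higher and 2 lower in nonTreg. Of those measured on both arrays, 2 were higher and 2 lower of 6 in Treg and of 4 in nonTreg. Lair1 differed by 4.55 in Treg and 3.18 in nonTreg, and the integrin chain Itga10 by -1.82 and -2.02.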

How the data were processed

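RNA of 8 mouse samples was hybridised to 8 one-colour arrays (Agilent SurePrint G3 Mouse, Cy3), 1 per group. Per the file headers, the deposited intensity values are background-subtracted, detrended spot signals from Agilent Feature Extraction 10.7.1.1, not normalized between arrays. The deposited series table holds a signal on a linear scale. It equals the processed intensity over a constant of each array for 99.89% to 99.97% of probes (tolerance 0.1%), with column medians of 0.068 to 0.123. It was used as an alternative.

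Spots of a probe were averaged, leaving out outlier flags where other spots remained. The mean was log2-transformed and the array's 75th percentile was subtracted, taken over all probes for tissue and, for T cells, over those above background on every array of the set. Printed signals are these values on a linear scale, multiplied by the geometric mean of the 4 percentiles of the set. Probes were named by RefSeq accession against GRCm38.p6, and the 44 collagen genes had 67 probes. Each gene is represented by its brightest probe, by the mean over the set. It was compared when that probe was well above background on either array. A bound uses the higher of the dim probe's value and the lowest value well above background on that array, and bounds under 1-fold were dropped. Of 33 comparisons by a second probe measured on both tissue arrays, 5 had the other sign, 0 went the opposite way at 2-fold and 1 lay over 2-fold from the probe used.

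No test was run. Members with 2-fold differences were named with all signals, as were Col1a1, Col1a2, Col3a1, Col4a1, Col4a2, Col6a1, Col15a1 and Col18a1. Of the 7 pathway and 10 marker lists (3 symbols had no probe), at most the 4 members with the largest differences per comparison were named. The members and lists were chosen with earlier results of these data known. The counting was tested on simulated arrays. Tools were Python 3.11.15, pandas 2.3.3, numpy 2.4.6, R 4.3.3 and limma 3.58.1. Alternatives were other background correction, scalings, filters, probe rules and the series table. The number of arrays limits the precision.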

Additional observations from a re-analysis of the deposited data

Results flagged for a closer look

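Collagen genes are given here where the same contrast had opposite signs on 2 pairs of arrays and the 2 differences were at least 2-fold apart. None of these differences of differences was tested. After stroke and after sham surgery, the difference between DEREG and WT slices was -0.94 and 0.38 (log2) for Col6a2, -0.63 and at least 0.69 for Col8a2, -2.26 and at least 0.38 for Col10a1, and 1.09 and -0.15 for Col22a1. Col6a2, Col8a2 and Col10a1 were brightest in WT ischemia, the array on which the choroid plexus gene Ttr had a signal of 26697, against 499.6 in DEREG ischemia. The part of that tissue in these values was not tested. Col22a1 was dimmest in WT ischemia.

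Between brain and spleen, Col16a1 differed by -1.52 in Treg and by at least 1.15 in nonTreg. Between Treg and nonTreg it differed by -0.41 in the brain and by at least 2.26 in the spleen. Both contrasts rest on its signal of 59.2 in spleen Treg, against 6.75 in spleen nonTreg, which was not well above background. The other Col16a1 probe was not well above background on any T cell array. Between Treg and nonTreg, Col20a1 differed by -0.49 in the brain and 0.56 in the spleen. Col23a1 differed by -0.27 in the brain and 1.03 in the spleen, and its other probes were well above background in spleen Treg at most.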

How the results depend on the processing

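Between stroke and sham, the count of collagen genes at least 2-fold apart was 31 in DEREG (24 to 32 over the 8 alternatives) and 31 in WT slices (26 to 32). The sizes depended on the background correction. With normexp on the median spot signal, the median collagen difference was 1.28 in DEREG and 1.155 in WT slices, in place of 1.89 and 1.92. Of 700 named differences of at least 2-fold recomputed, 0 reversed and 47 fell under 2-fold, 33 of these with normexp correction. Normexp was run on the median spot signal, chosen after seeing the data, because the files hold no mean signal; the planned version was not run. It gave 1 in place of 3 for DEREG against WT ischemia, 3 in place of 12 for brain against spleen Treg, 2 in place of 10 for brain against spleen nonTreg, and 0 in place of 2 for Treg against nonTreg in the brain and in the spleen. Without a filter on dim probes the counts were 2 in place of 0 for DEREG against WT sham, 23 for brain against spleen Treg, 16 for nonTreg, 9 for brain Treg against nonTreg and 4 for spleen Treg against nonTreg. With genes above background on both arrays alone, which drops every bound, they were 5, 2, 1 and 1 for the same T cell comparisons. For spleen Treg against nonTreg, quantile normalization, a percentile over the other set of probes, scaling on the median, the median over probes and the series table each gave 1 in place of 2. Taking the median as scaling point moved the median of all genes by -0.17 (log2) in WT slices. There 25 collagen genes were then higher and 4 lower in ischemia, and relative to the median of all genes 28 were higher and 4 lower, with either scaling point. T cell counts rest on signals near the detection floor, and there the depth of signal limits what can be said. No paired analysis was possible because each group has 1 array.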
